A study of Saccharomyces cerevisiae with 24 samples.

Results

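Large-subunit (60S) assembly factors are the proteins that bind the precursor of the large ribosomal subunit in the nucleolus, remodel it, carry it through the nuclear pore and leave it in the cytoplasm. The gene set described here held 46 budding yeast (Saccharomyces cerevisiae) genes of this kind, chosen by name from what is known of their function, without DEAD-box RNA helicases. Earlier results of these data were known when the genes were chosen, so the choice was not independent of the data. All 46 systematic names were found in RefSeq's gene table. All 46 were among the 6575 open reading frames (ORFs) of the deposited expression table, and 45 were among the 4427 ORFs of the deposited promoter and gene body tables. SSF1 (YHR066W) was not in the promoter and gene body tables, so its chromatin was not analysed here.

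Cells of strain W303, mating type MATa with the alleles ade2-1, ura3-1, trp1-1, can1-100 and his3-11,15 and the leu2 mutations 3 and 112, were sampled before cadmium (0 min) and at 7.5, 15, 30, 60 and 120 min of exposure to 1 mM cadmium chloride. Cultures had grown at 30 °C in rich medium to an optical density of 0.8 at 600 nm, and cells of every time point shared this 1 strain and these alleles. RNA was sequenced, and chromatin was cut with micrococcal nuclease (MNase), which spares DNA that proteins cover. The labels list 12 RNA samples and 12 MNase samples, 2 of each per time point. The series text counts 6 RNA samples and calls the MNase replicates technical. Only the RNA samples labelled replicate 2 refer to the expression table in their descriptions, so the TPM columns may hold that replicate alone or both combined.

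The 3 deposited tables have 1 column per time point and no column that names a replicate. Every value below is therefore the authors' value for a time point, with no standard deviation, no number of replicates and no p-value, and a difference between columns has no replicate check. RNA levels are in TPM, reads scaled by ORF length and to a fixed total per column. A change is log2(TPM + 1) at a treated time minus that at 0 min. Counts over all ORFs used the 5965 that averaged at least 1 TPM over the 6 columns, which all 46 genes did. A change of at least 1 on this scale, close to a 2-fold difference, was counted. The read numbers that the TPM values imply ran between 31543389 and 33946107 per column, and the lowest of the 46 genes in any column was NIP7 at 60 min with 53 implied reads. Counting error from these reads was at most 0.16 on the log2 scale, and it does not cover differences between cultures. All treated columns are compared with the same 0 min column.

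A ribosome's large subunit starts as a long RNA made in the nucleolus, to which early factors bind while the RNA is still being folded, cut and methylated. Later factors join the separate 5S RNA, use GTP or ATP to drive remodelling steps, and escort the particle out of the nucleus, where the last factors are stripped off. Budding yeast is known to make the RNAs for these proteins together with those of other ribosome biogenesis genes in growing cells, and to lower them together under many stresses.

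RNA of all 46 genes was lower in each of the 5 cadmium columns than at 0 min, while 63.7% of all ORFs were lower at 7.5 min and 41.1% at 120 min. At 15 min all 46 had fallen by at least 1 on the log2 scale, where 12.6% of all ORFs had, and the same count held at the 3 later times, where 16.7%, 18.5% and 20.2% of all ORFs had. At 7.5 min 3 of the 46 had fallen by at least 1, where 1.74% of all ORFs had. The median change of the 46 was -0.53, -2.77, -4.38, -4.93 and -4.45 from 7.5 to 120 min. The median over all ORFs was -0.10, 0.11, 0.35, 0.44 and 0.34, so the fall of the set relative to the median ORF was larger than its own value from 15 min on. TPM is a share of the sequenced RNA, and in these bulk cultures fewer cells and less RNA per cell cannot be told apart.

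The summed level of the 46 genes was 13009, 8994, 2149, 728, 538 and 695 TPM from 0 to 120 min. The set thus made up 0.0538% of all TPM at 60 min, against 1.30% at 0 min. A change of -4 or lower at 60 min was found in 35 of the 46 genes and in 4.21% of all ORFs. Single genes ran between 1.75 TPM (SSF1) and 95.5 TPM (TIF6) at 60 min, against 64.1 TPM (NOP8) to 645 TPM (NOG1) at 0 min. The median level of the genes was 8.53 TPM at 60 min, against 256 TPM at 0 min, while that of the 5965 ORFs was 57.9 TPM against 46.2 TPM. The ranges of the genes at the 2 times overlapped only through TIF6.

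**Figure D1:**
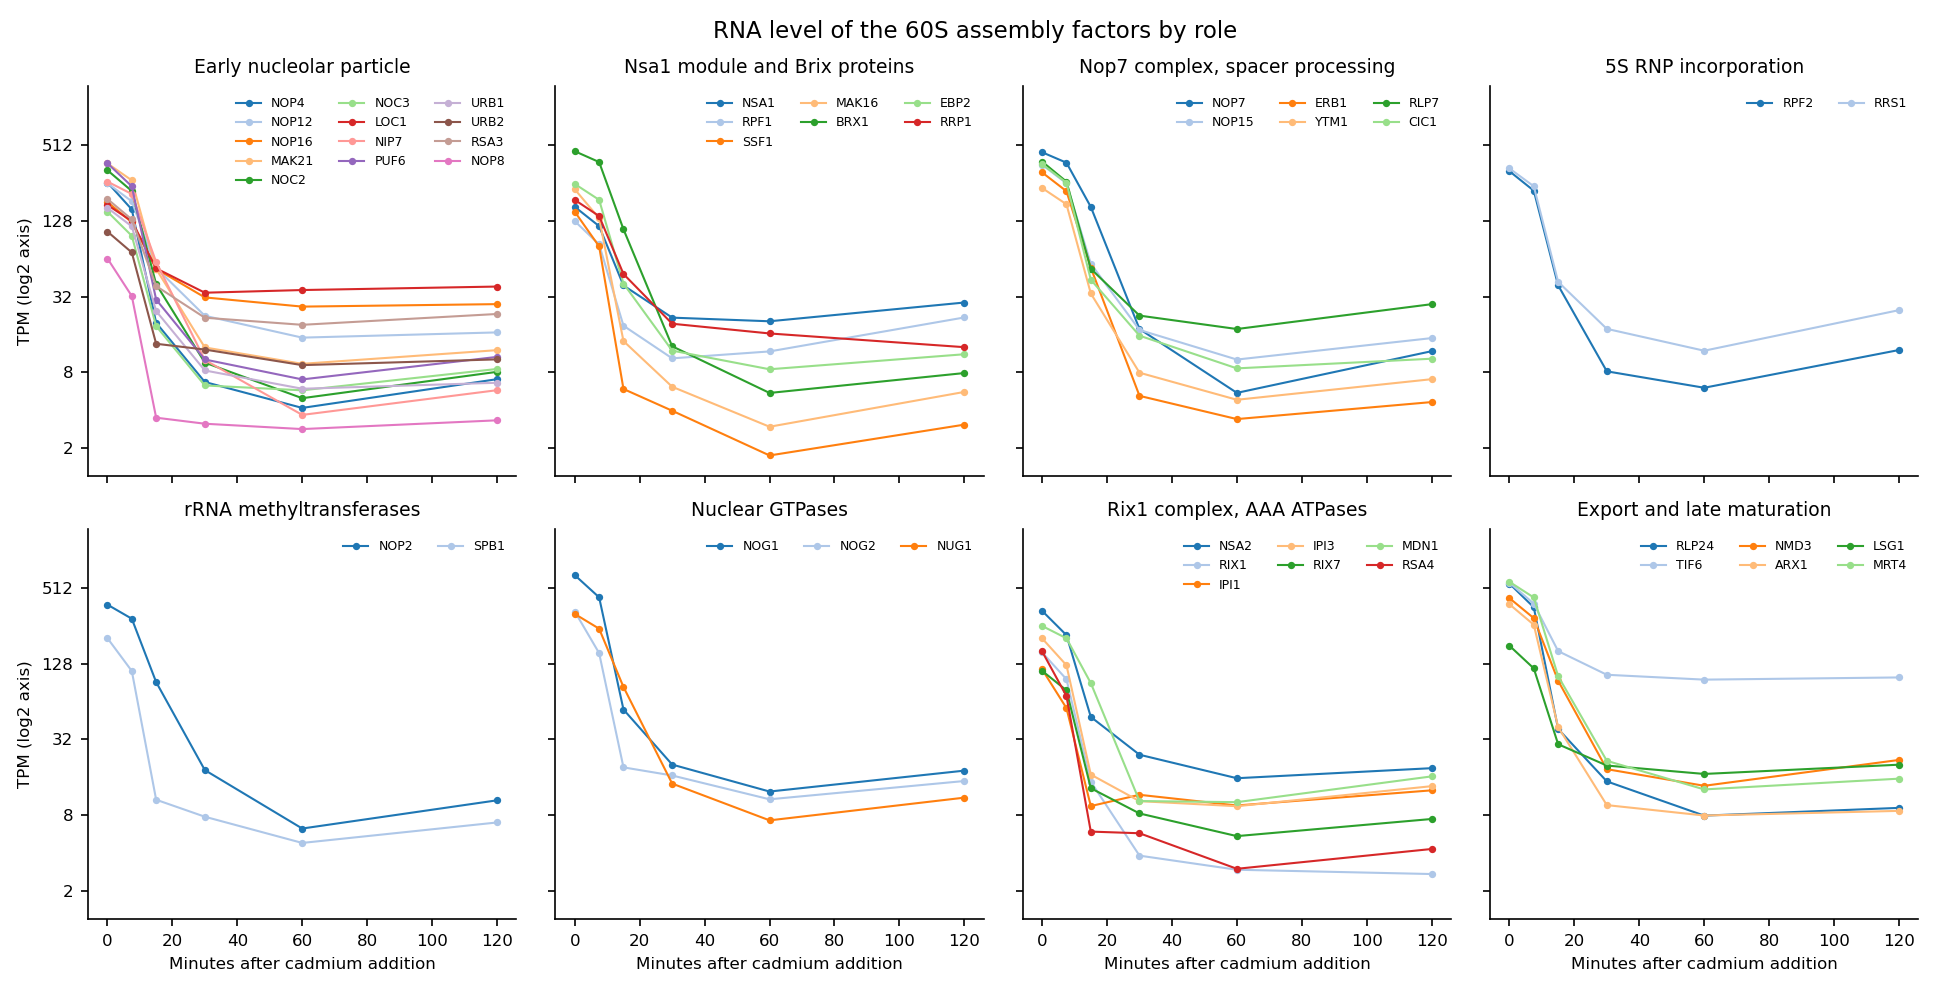
RNA level in TPM (log2 axis) of each of the 46 genes at 0, 7.5, 15, 30, 60 and 120 min after cadmium addition, 1 line per gene and 1 panel per role, each point being the authors' single value. Every line drops steeply before 30 min, TIF6 stays near 100 TPM from 30 min on, and 44 lines turn up between 60 and 120 min.

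The earliest nucleolar particle was represented by 13 genes, whose median change was -2.76 at 15 min and -4.49 at 60 min. The largest mean fall over 15 to 120 min among them was that of NOP4 (YPL043W, chromosome XVI, 469939 to 471996, plus strand), an RNA-binding protein of the early particle. NOP4 had 257, 157, 19.8, 6.71, 4.18 and 7.06 TPM from 0 to 120 min. Its level was thus lowest at 60 min, with a change of -5.64 there.

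LOC1 (YFR001W, chromosome VI, 149110 to 149724, plus strand), a nucleolar RNA-binding protein also known for the localisation of ASH1 messenger RNA, had the smallest mean fall of the 46. LOC1 had 170, 127, 53.5, 34.3, 36.0 and 38.4 TPM from 0 to 120 min. Its levels from 30 min on were close together, with changes of -2.28, -2.21 and -2.12, and its lowest level was at 30 min as deposited but at 60 min after median-ratio rescaling, in which each column is divided by its median ratio to the geometric mean of the columns. PUF6, which represses ASH1 translation and also acts in 60S assembly, was at 7.03 TPM at 60 min against 365 TPM at 0 min, a change of -5.51. The genes that share this second role were therefore far apart in depth.

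URB1, URB2, NOP8 and RSA3, which form a complex with the helicase Dbp6, differed in depth and in speed. NOP8 was the least abundant of the 46 genes before cadmium, with 64.1, 32.3, 3.49, 3.13, 2.84 and 3.33 TPM from 0 to 120 min. NOP8 was almost at its lowest level by 15 min, and moved little after that. URB2 had 105, 71.6, 13.5, 12.1, 9.13 and 10.1 TPM in the same order of times. By 15 min URB2 had made 84.7% of its largest log2 fall and NOP8 94.4%. The fall of URB2 was smaller at both times, at -2.87 at 15 min and -3.38 at 60 min, where NOP8 was at -3.86 and -4.08. URB1 (-4.55 at 60 min) went deeper and RSA3 (-3.25) was the shallowest of these 4.

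Among the other early factors, MAK21, NOC2 and NOC3, whose proteins bind one another in pairs, had changes of -5.14, -5.75 and -4.49 at 60 min. NIP7, a small RNA-binding factor that binds Nop8, had 60.1 TPM at 15 min and 3.68 TPM at 60 min, against 261 TPM at 0 min. NIP7 was therefore slow at first and among the deepest later, at -5.81. NOP12 (-3.98 at 60 min) and NOP16 (-2.71), both components of nucleolar 60S precursors, were shallower, NOP16 holding 26.6 TPM at 60 min against 180 TPM at 0 min.

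The Nsa1 module and the Brix-domain proteins with their partners, 7 genes, had a median change of -2.60 at 15 min and -4.73 at 60 min. SSF1 (chromosome VIII, 229335 to 230696, plus strand), a Brix-domain protein of the early particle, fell most in this group by its mean over 15 to 120 min. SSF1 had 151, 79.9, 5.90, 3.97, 1.75 and 3.08 TPM from 0 to 120 min. It reached the lowest level of any of the 46 genes. SSF2, its near-identical copy and not one of the 46, had 52.2, 46.2, 22.2, 22.5, 18.0 and 19.4 TPM in the same order of times. The ratio of SSF2 to SSF1 was 10.3 at 60 min against 0.347 at 0 min. How reads shared by the copies were assigned is not given in the sources used here, so both levels are uncertain.

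NSA1 (YGL111W, chromosome VII, 299978 to 301369, plus strand), which gives the module its name, had the smallest mean fall of the group. NSA1 had 165, 116, 39.2, 21.7, 20.3 and 28.7 TPM from 0 to 120 min. Its partners in the module went to other depths at 60 min, with -5.85 for MAK16, -3.44 for RRP1 and -3.33 for RPF1. BRX1 and EBP2, which bind each other, also parted: BRX1 had 109 TPM at 15 min and 5.49 at 60 min, against 455 TPM at 0 min, while EBP2 had 40.5 and 8.46 TPM, against 250 TPM at 0 min. The ratio of BRX1 to EBP2 was 2.70 at 15 min and 0.649 at 60 min, against 1.82 at 0 min.

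RPF1 (YHR088W, chromosome VIII, 281495 to 282382, plus strand), a Brix-domain protein, had 127, 82.9, 18.8, 10.3, 11.7 and 21.8 TPM from 0 to 120 min. It was lowest at 30 min and more than doubled afterwards. RTC3, the next ORF upstream on the same strand with 339 bases between them, had 5.33, 17.2, 514, 704, 1481 and 1543 TPM over the same times. Whether transcripts running on from RTC3 contributed to the counts of RPF1 was not tested.

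The Nop7 complex and the factors that bind or process the internal transcribed spacers numbered 6, with a median change of -2.67 at 15 min and -5.27 at 60 min. ERB1 (YMR049C, chromosome XIII, 368094 to 370517, minus strand), a scaffold of the complex, had 309, 219, 54.2, 5.21, 3.41 and 4.65 TPM from 0 to 120 min, and its change of -6.14 at 60 min was, with that of BRX1, the deepest of the 46. RLP7, a spacer-binding factor that resembles ribosomal protein L7, had the smallest mean fall here, with 377, 261, 53.1, 22.6, 17.7 and 27.8 TPM.

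NOP7 (YGR103W, chromosome VII, 695417 to 697234, plus strand), for which the complex is named, fell later than any other gene of the 46. NOP7 had 447, 369, 165, 17.7, 5.50 and 11.8 TPM from 0 to 120 min. Its ratio to ERB1 was 3.04, 3.39, 1.61 and 2.53 from 15 to 120 min, against 1.45 at 0 min. Its ratio to YTM1, another subunit, was 4.87 at 15 min and 1.13 at 60 min, against 1.92 at 0 min. NOP7 thus stood furthest above ERB1 at 30 min and furthest above YTM1 at 15 min. NOP15 and CIC1, which bind the same spacer, had 10.1 and 8.60 TPM at 60 min, against 355 and 360 TPM at 0 min.

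RPF2 and RRS1, which together bring the 5S RNA with its proteins into the particle, fell alike at first. RPF2 (YKR081C, chromosome XI, 591506 to 592540, minus strand) had 316, 221, 39.3, 8.15, 6.04 and 12.0 TPM from 0 to 120 min. RRS1 (YOR294W, chromosome XV, 868340 to 868951, plus strand) had 332, 240, 41.8, 17.7, 11.9 and 24.9 TPM. Their ratio was 0.939 at 15 min against 0.951 at 0 min, and then 0.460 at 30 min and 0.508 at 60 min. Both about doubled between 60 and 120 min, by 0.89 and 1.01 on the log2 scale.

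The pair of ribosomal RNA methyltransferases differed in speed. SPB1 (YCL054W, chromosome III, 31449 to 33974, plus strand) had 204, 112, 10.6, 7.79, 4.83 and 7.02 TPM from 0 to 120 min. NOP2 (YNL061W, chromosome XIV, 510540 to 512396, plus strand) had 376, 291, 91.3, 18.3, 6.28 and 10.5 TPM. By 15 min SPB1 had made 80.6% of its largest log2 fall and NOP2 35.7%, although by 60 min NOP2 was at -5.69 and SPB1 at -5.13.

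Of the 3 nuclear GTPases, NOG1 (YPL093W, chromosome XVI, 370978 to 372921, plus strand) was the most abundant of the 46 genes before cadmium. NOG1 had 645, 430, 55.3, 20.2, 12.3 and 18.1 TPM from 0 to 120 min. NOG2 (YNR053C, chromosome XIV, 721120 to 723112, minus strand), whose span includes an intron, had 332, 155, 19.2, 16.6, 10.7 and 15.0 TPM. NUG1 (YER006W, chromosome V, 162723 to 164285, plus strand) had 317, 242, 83.5, 14.3, 7.29 and 11.0 TPM. NOG2 and NUG1 started at similar levels, and their order changed on the way, NUG1 being higher at 7.5 and 15 min and lower from 30 min on.

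A further group of 7 genes held RIX1, IPI1 and IPI3 of the Rix1 complex, the AAA ATPase genes MDN1 and RIX7, and RSA4 and NSA2. Its median change was -3.32 at 15 min and -4.33 at 60 min. RSA4 (YCR072C, chromosome III, 240805 to 242352, minus strand), which the ATPase Mdn1 pulls from the particle, had 160, 70.8, 5.94, 5.76, 3.01 and 4.32 TPM from 0 to 120 min. MDN1 (YLR106C, chromosome XII, 349006 to 363738, minus strand), the longest ORF of the set, had 255, 203, 89.6, 10.4, 10.2 and 16.3 TPM. RNA of MDN1 and of RSA4 was therefore furthest apart at 15 min, with a ratio of 15.1, against 1.59 at 0 min. The ratio was 1.80 at 30 min and 3.38 at 60 min.

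IPI1 (YHR085W, chromosome VIII, 276764 to 277768, plus strand), a subunit of the Rix1 complex, had the smallest mean fall of this group. IPI1 had 115, 56.8, 9.47, 11.6, 9.57 and 12.6 TPM from 0 to 120 min. Its levels at 15 and 60 min were within counting error of each other, and after median-ratio rescaling of the columns it was lowest at 60 min. RIX1 itself (YHR197W, chromosome VIII, 493896 to 496187, plus strand) had 157, 96.2, 14.8, 3.83, 2.96 and 2.73 TPM. The ratio of IPI1 to RIX1 was 3.04, 3.24 and 4.62 at the 3 last times, against 0.734 at 0 min, and that of IPI3, another subunit, to RIX1 was 4.98 at 120 min against 1.29 at 0 min. NSA2 and RIX7, the ATPase that removes Nsa1, were at -4.33 and -4.13 at 60 min.

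The 6 factors of export and late maturation had a median change of -2.52 at 15 min and -5.11 at 60 min. RLP24 (YLR009W, chromosome XII, 166537 to 167136, plus strand), which holds the place of ribosomal protein L24 until the particle is in the cytoplasm, fell most in this group. RLP24 had 552, 358, 38.8, 14.9, 7.95 and 9.16 TPM from 0 to 120 min. MRT4, which holds the place of the stalk protein P0, had 570, 428, 102, 21.6, 12.8 and 15.6 TPM. The export factors NMD3 and ARX1 were at -4.85 and -5.40 at 60 min, and LSG1, the cytoplasmic GTPase that releases Nmd3, was at -3.31.

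TIF6 (YPR016C, chromosome XVI, 592332 to 593069, minus strand) keeps the large subunit from joining the small one until it is removed in the cytoplasm. TIF6 had 562, 383, 161, 104, 95.5 and 99.4 TPM from 0 to 120 min. It was the one gene of the 46 above 50 TPM from 30 min on. TIF6 made up 17.8% of the summed TPM of the set at 60 min, against 4.32% at 0 min. RLP24 and MRT4, which started at levels similar to that of TIF6, ended far below it.

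Speed and depth of the fall both varied across the set. The log2 level had gone halfway to its lowest value at a median of 13.1 min, by linear interpolation between the sampled times, with IPI1 earliest at 9.72 min and NOP7 latest at 22.7 min. By 15 min the genes had made a median of 63.5% of their largest log2 fall, and single genes between 23.5% (NOP7) and 100% (IPI1, or 92.8% after median-ratio rescaling). The spread of levels was widest in the 15 min column: the standard deviation of log2(TPM + 1) across the 46 genes was 0.73, 1.18 and 0.85 in the 0, 15 and 30 min columns.

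Under 50% of the fall had been made by 15 min in 9 genes, namely NOP7, MDN1, BRX1, NOP2, NIP7, NUG1, ERB1, NMD3 and MRT4. At least 80% had been made in 7 genes, namely IPI1, NOP8, RSA4, URB2, NOG2, IPI3 and SPB1. After median-ratio rescaling 11 genes were under 50%, and 3 (IPI1, NOP8 and RSA4) were at 80% or more. As deposited, each of these groups held genes of at least 4 roles. The largest step between neighbouring columns was that from 7.5 to 15 min in 37 genes and that from 15 to 30 min in the other 9. Genes with a higher level at 0 min had made a smaller share of the fall by 15 min (Spearman's rho -0.58 across 46 genes), while rho with ORF length was 0.02. These are descriptions across genes of the same columns, and the measures other than length share the 0 min column.

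**Figure D2:**
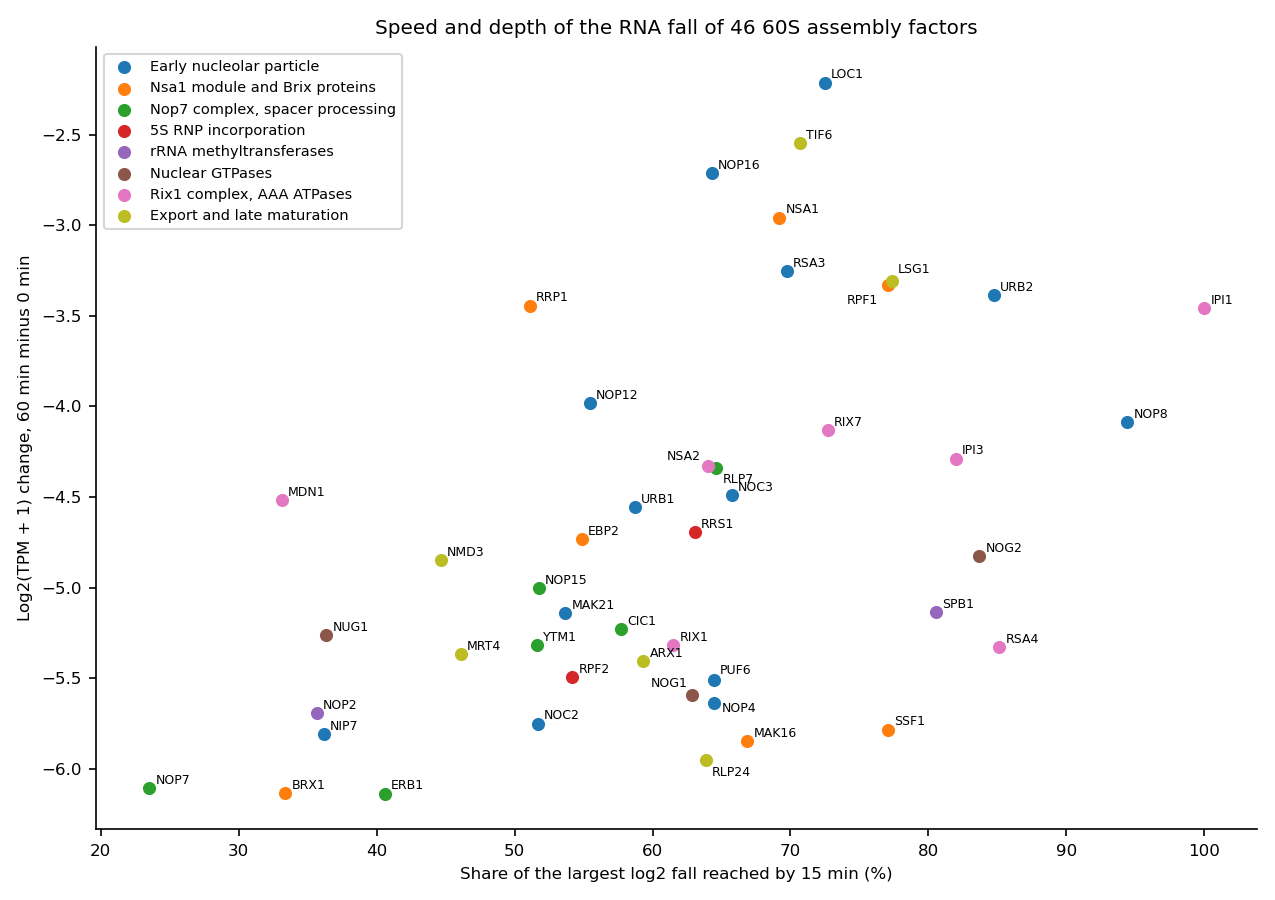
Change in log2(TPM + 1) at 60 min from 0 min (vertical axis) against the share of the largest log2 fall already made by 15 min in percent (horizontal axis), 1 point per gene for 46 genes, coloured by role. NOP7, BRX1 and ERB1 are at the lower left, slow at first and deepest at 60 min, IPI1 and NOP8 are at the right, and LOC1, TIF6 and NOP16 are at the top. In the 41 genes that were lowest at 60 min the share has the 60 min change as its denominator, so part of the slope across the points is built in.

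The first column after cadmium already separated the genes. The 3 largest falls at 7.5 min were those of RSA4 (-1.16), NOG2 (-1.09) and IPI1 (-1.01), and the 3 smallest were those of NOP7 (-0.28), BRX1 (-0.28) and MDN1 (-0.32). Relative to the median ORF by the median of ratios, 1 gene, RSA4, remained at or below -1 at 7.5 min.

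Between 60 and 120 min 44 of the 46 genes had a higher level, where 43.2% of all ORFs did. The median difference was 0.45 on the log2 scale, against -0.05 for all ORFs. The largest differences were those of RRS1 (1.01), NOP7 (0.98) and RPF2 (0.89), and TIF6 had the smallest positive one, at 0.06. RRP1, a subunit of the Nsa1 module (YDR087C, chromosome IV, 617470 to 618306, minus strand), had 187, 139, 48.3, 19.5, 16.3 and 12.7 TPM from 0 to 120 min and was lower by 0.34. RIX1 was lower by 0.08, which is within its counting error. The summed level at 120 min was still 5.34% of that at 0 min.

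Other ribosome gene lists, made up from knowledge of their function but with earlier results of these data known, were set beside the 46 genes. At 60 min the 46 genes had a median change of -4.93. It was -3.18 for 27 other 60S assembly factors, -4.45 for 10 DEAD-box helicases of 60S assembly, -4.40 for 41 genes of the small-subunit processome and -4.25 for 76 ORFs of cytosolic large-subunit ribosomal proteins (RPL). Levels at 0 min differed too, with medians of 256, 144, 201, 186 and 1475 TPM for the 46 genes and these lists in the same order. A fall of at least 1 at 60 min was counted in 46 of 46, 27 of 27, 10 of 10, 41 of 41 and 75 of 76, where 18.5% of all ORFs had one. The RPL exception, RPL15B, had 155 TPM at 60 min against 41.8 TPM at 0 min. The difference of the medians of the 46 genes and the RPL ORFs at 60 min, -0.67, was -0.23 with a pseudocount of 5 TPM. All lists share the same columns, and no test was made between them.

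Timing also differed in value between the lists. The median time of that midpoint was 13.1 min for the 46 genes, 11.7 min for the other 60S factors, 13.9 min for the helicases and 12.4 min for the small-subunit processome, and it was 30.6 min for the 75 RPL ORFs that fell. None of those 75 was higher at 120 than at 60 min, and all 75 were lowest at 120 min. Of the 46 genes, 41 were lowest at 60 min, 2 (LOC1 and RPF1) at 30 min, 2 (RRP1 and RIX1) at 120 min and IPI1 at 15 min. After median-ratio rescaling 43 were lowest at 60 min, RPF1 at 30 min, and RRP1 and RIX1 at 120 min. The slowest of the 46 genes, NOP7 at 22.7 min, was about level with the fastest RPL ORF at 22.7 min.

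**Figure D3:**
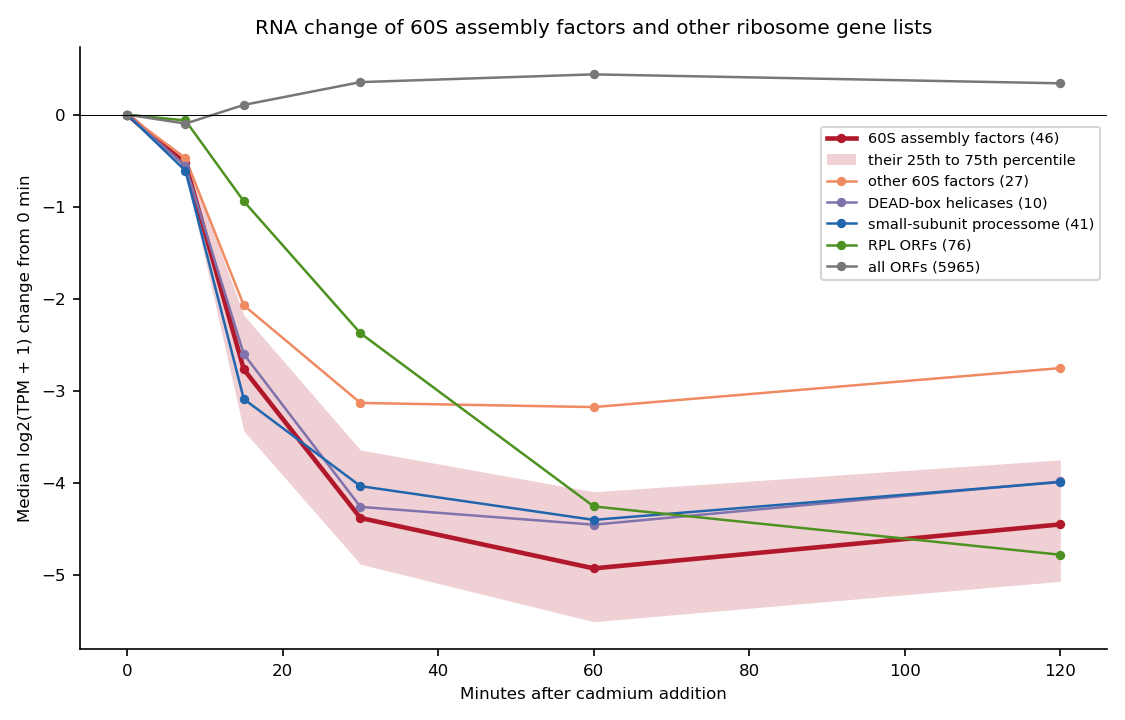
Median change in log2(TPM + 1) from 0 min against minutes after cadmium addition for the 46 60S assembly factors, for other ribosome gene lists and for all ORFs, with the number of genes in the legend and the band marking the 25th to 75th percentile of the 46. The 46 genes are at -4.93 at 60 min and -4.45 at 120 min, while the RPL line lags behind and is at its lowest, -4.78, at 120 min.

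Small MNase fragments over promoters are counts of DNA protected by something smaller than a nucleosome, such as a transcription factor. None of the 45 measured promoters had a change of at least 1 in either direction on the log2(count + 63) scale at any time. Such changes were rare among all 4427 promoters too, at 0.0226%, 0.361%, 0.587%, 1.81% and 3.14% from 7.5 to 120 min. The pseudocount of 63 is large beside these counts, whose median was 200 at 0 min. It makes a change smaller than that of the raw count, so this scale is unlike that of the RNA. NOP16, for example, went from 97 to 233 fragments at 120 min for a change of 0.89. The median change of the 45 was -0.03, 0.01, 0.05, 0.24 and 0.41 at the 5 treated times, next to -0.09, 0.01, 0.12, 0.28 and 0.40 for all promoters. The set therefore moved with the columns, whose totals grew to 1050068 fragments at 120 min, against 713795 at 0 min. After each column was divided by its median, the median change of the 45 was 0.06, -0.03, -0.09, -0.08 and -0.05. Any depth matching by the authors is not given in the sources used here.

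NOP16 (YER002W, chromosome V, 156803 to 157498, plus strand) had the largest mean rise in fragments, with 97, 100, 160, 161, 183 and 233 fragments from 0 to 120 min. Its change at 120 min was 0.89, and it was among the genes whose RNA fell least. RSA4 was next, with 141, 190, 173, 231, 221 and 243 fragments, followed by NOG2, with 284, 296, 310, 384, 459 and 421. With columns divided by their median, NMD3 took the place of NOG2, whose change at 120 min was then -0.02. RSA4 and NOG2 were the genes with the 2 largest RNA falls at 7.5 min.

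The lowest mean changes were those of RRS1 (200, 153, 144, 175, 213 and 274 fragments from 0 to 120 min), NSA2 (289, 253, 235, 256, 262 and 330) and IPI3 (209, 185, 165, 162, 205 and 241). Each of these 3 dipped in the early columns and had a raw count above that of 0 min at 120 min, but with columns divided by their median the 120 min changes were -0.11, -0.33 and -0.30. A count below that at 0 min was found in 28, 20, 15, 3 and 0 of the 45 promoters from 7.5 to 120 min, beside 70.8%, 46%, 24.1%, 9.44% and 7.12% of all promoters. With columns divided by their median, 18, 27, 32, 29 and 33 of the 45 were lower instead. Counting error of a change ran between 0.084 and 0.13. At 60 min the RNA change and the promoter change had a Spearman's rho of 0.02 across the 45 genes, and of 0.43 across 4423 ORFs, as descriptions across genes that share the same columns.

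Gene body entropy is the authors' score of how disorganised nucleosomes are over the ORF. At 7.5 and at 15 min all 45 measured genes had a lower score than at 0 min, where 74.3% and 64.7% of all ORFs did. The count was 44, 43 and 41 genes at the 3 later times, where 54.1%, 45% and 47.9% of all ORFs were lower. The median change of the 45 was -0.165, -0.309 and -0.273 from 7.5 to 30 min and -0.226 at both later times, while the median over all ORFs was between -0.044 and 0.017. A score lower by at least 0.2 was found in 16 of the 45 genes at 7.5 min (4.04% of all ORFs) and in 36, 32, 27 and 26 of them at the later times (10.8%, 10.4%, 10.5% and 12% of all ORFs). At 7.5 min the count was 7 with columns centred on their median and 9 after quantile normalization. Scores have no counting error, since the fragments behind them are not in the table used.

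**Figure D4:**
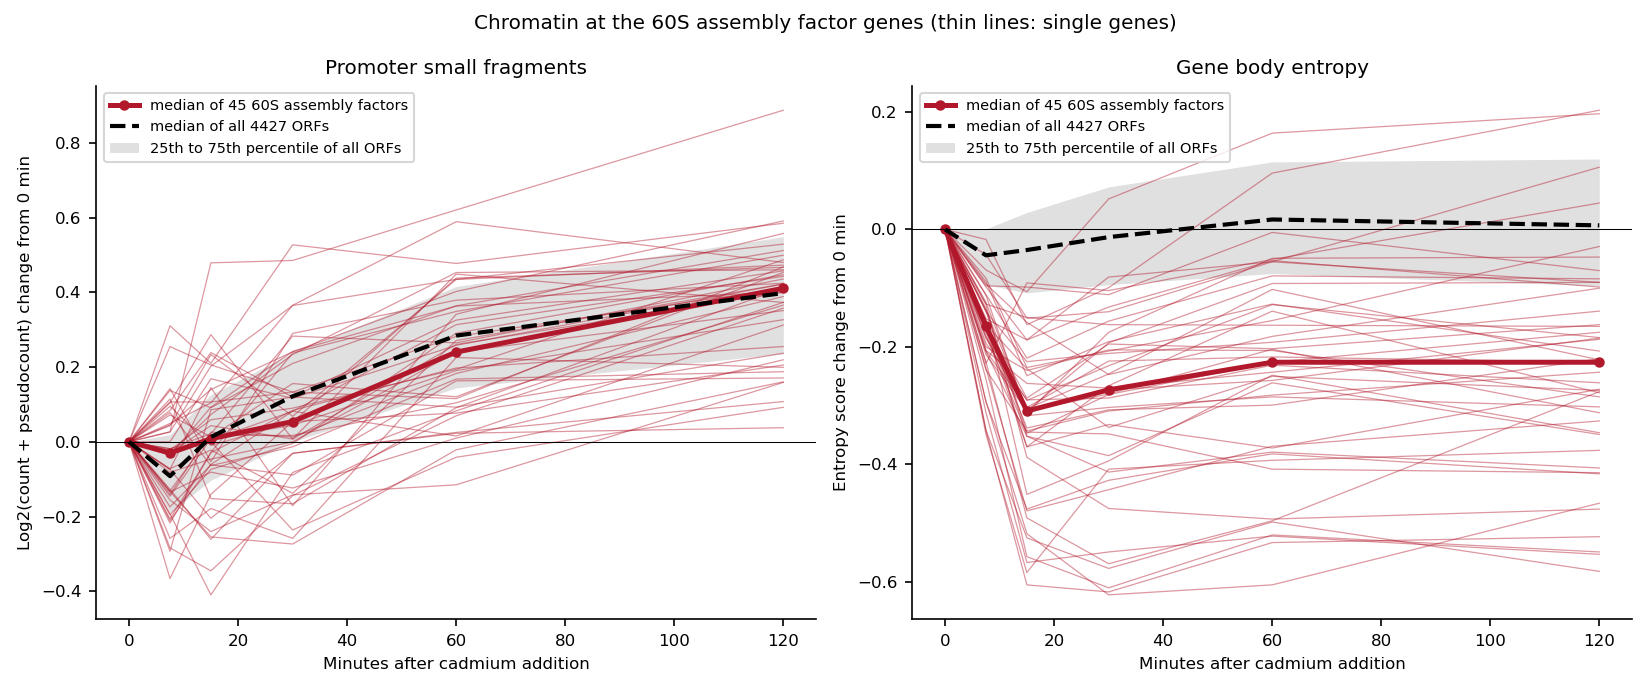
Change from 0 min in small promoter fragments, as log2(count + pseudocount) with a pseudocount of 63, and in the gene body entropy score, against minutes after cadmium addition. Thin red lines are the 45 genes, the thick red line their median, the dashed line the median of all 4427 ORFs and the grey band their 25th to 75th percentile. The promoter medians run together to about 0.4 at 120 min, while the entropy median of the set is at -0.309 at 15 min and -0.226 at 120 min.

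NOG1 had the largest mean fall in entropy, with scores of 6.67, 6.32, 6.06, 6.05, 6.13 and 6.14 from 0 to 120 min. RLP24 had 6.65, 6.31, 6.12, 6.07, 6.15 and 6.07 in the same order of times. NOG2 had 6.94, 6.65, 6.42, 6.32, 6.34 and 6.48. At 7.5 min the entropy changes of NOG1, RLP24 and NOG2 were -0.342, -0.342 and -0.293, and their RNA changes were -0.58, -0.62 and -1.09.

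LOC1 had the highest mean change in entropy, with 6.75, 6.68, 6.64, 6.80, 6.91 and 6.94 from 0 to 120 min. RPF1 had 6.36, 6.34, 6.19, 6.26, 6.45 and 6.56. TIF6 had 6.81, 6.66, 6.62, 6.73, 6.75 and 6.91. All 3 dipped at 15 min and were above their 0 min score at 120 min, by 0.197, 0.203 and 0.106. RIX1, at 0.045, was the fourth gene above its 0 min score at 120 min. RNA of LOC1, TIF6 and RPF1 was among the least lowered of the set at 120 min, at -2.12, -2.49 and -2.49, whereas that of RIX1 was at -5.40. NSA1 and NOP16, at -2.48 and -2.65, were also among the least lowered, but their entropy changes at 120 min were -0.139 and -0.084.

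The lowest score came at 15 min in 27 of the 45 genes, at 30 min in 10, at 120 min in 5, at 60 min in 2 and at 7.5 min in 1, while RNA was lowest at 60 min in 41 of 46. The share of all ORFs with the lowest score at each time was not counted. Their median change was also lowest early, at -0.044, -0.035, -0.013, 0.017 and 0.007 from 7.5 to 120 min, so the early low is not particular to the set. At 120 min 37 of the 45 had a higher score than at 15 min, which 68.0% of all ORFs did. The relation of RNA change to entropy change across the 45 genes was weak at first, with a Spearman's rho of 0.03 at 7.5 min and 0.14 at 15 min. At the 3 later times it was 0.39, 0.54 and 0.53. Across 4423 ORFs it was 0.32, 0.57, 0.55, 0.52 and 0.48 at the 5 times. These are descriptions across genes that share the same columns, and every change is taken from the 0 min columns.

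**Figure D5:**
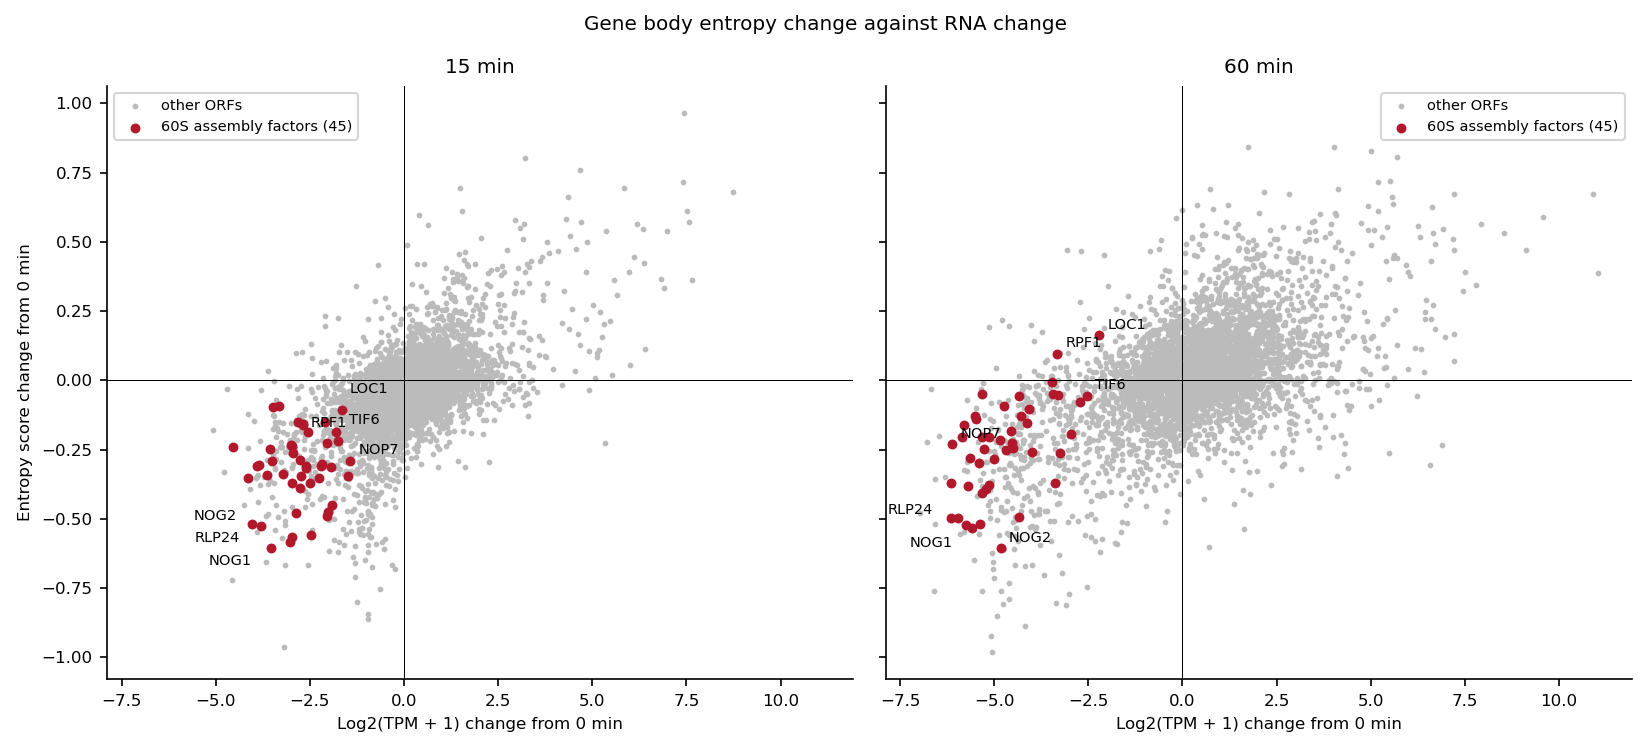
Change in the gene body entropy score (vertical axis) against change in log2(TPM + 1) (horizontal axis) from 0 min, at 15 min and at 60 min, with 45 60S assembly factors in red and the other ORFs in grey. At 15 min every red point is below 0 on both axes, and at 60 min LOC1 and RPF1 are above 0 in entropy while NOG2 is at -0.605.

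The 46 genes lay on 14 chromosomes, 25 on the plus strand and 21 on the minus strand, in RefSeq's annotation of assembly R64. No RefSeq ORF overlapped one of them and none was next to another of the set. Upstream, 21 had a divergent neighbour, which shares the intergenic region with it, and 25 had a neighbour on the same strand. Of 43 upstream neighbours that averaged at least 1 TPM, 18 were lower by at least 1 at 60 min, or 41.9%, and of 45 such downstream neighbours 6 were, or 13.3%, beside 18.5% of all ORFs. The lower upstream neighbours were 9 divergent ones and 9 on the same strand. Of the upstream neighbours 3 were in the lists above, all in that of the small-subunit processome: LCP5 beside NSA2, UTP9 beside RIX1 and UTP13 beside RSA3. The lists do not hold every ribosome gene: the ribosomal protein gene RPS15, upstream of NOP12, was at -4.41 at 60 min and is in none of them. The strand used in counting is not given in the sources used here, so transcripts of a neighbour that enter an ORF cannot be told apart from its own. No promoter sequence was used here.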

How the data were processed

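RNA and MNase chromatin samples were analysed from 3 tables of the whole series. The expression table holds TPM as deposited, and each column sums to the same total. Small MNase fragments were deposited as a raw count per promoter. Nucleosome disorder along each ORF was deposited as an entropy score. Builds sacCer3 and R64 and the tool Bowtie 0.12.7 are named, without a role, in the submitters' processing notes. Counting, strand, windows, the entropy formula and the pooling of replicates are not given in the sources used here.

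Columns were mapped to time points by their headers, per the file headers. Changes were differences from 0 min of log2(TPM + 1), of log2(count + 63) and of the score, with the pseudocount of 63 set at the 10th percentile of all counts. ORFs averaging under 1 TPM were left out of RNA counts. Read numbers were implied from TPM and RefSeq lengths: 99.5% of ORFs in the 0 min column came out whole within 0.02 reads. Counting errors are Poisson. Names and coordinates came from RefSeq's R64 table, in which 5900 of the 6575 ORFs were found (MDN1 is listed there as REA1). RNA changes after median-ratio rescaling and implied read numbers were tested on simulated counts, and the time of the midpoint on a made-up curve. Promoter, entropy and neighbour steps were not simulated. Python 3.11.15, pandas 2.3.3, numpy 2.4.6 and scipy 1.17.1 were used.

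The members and lists were chosen with earlier results of these data known. Genes named in full were those with the largest and smallest mean RNA fall in each role (all in roles of up to 3), and the 3 highest and 3 lowest by TPM at 0 min, by change at 7.5 min, by the difference of 120 and 60 min, and by mean promoter and entropy change. Other genes were added after their values were seen.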

Additional observations from a re-analysis of the deposited data

How the results depend on the processing

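No paired analysis was possible because the columns carry no replicate number, and for the same reason no replicate could be left out. The planned search for promoter motifs was not run, since no promoter sequences were used here. In 230 single RNA changes no sign changed with median-ratio rescaling or with totals taken without ribosomal protein ORFs. The other RNA alternatives, which altered the pseudocount or the filter, could not change a sign in these genes. The median RNA change with a pseudocount of 5 TPM was -2.64, -4.02, -4.39 and -4.10 from 15 to 120 min. With median-ratio rescaling it was -0.39, -2.87, -4.70, -5.34 and -4.78 from 7.5 to 120 min, and 1 gene had fallen by at least 1 at 7.5 min. With totals taken without ribosomal protein ORFs it was -3.02, -4.79, -5.40 and -4.93 from 15 to 120 min. With a pseudocount of 5 TPM the median of the set minus that of the other 60S factors was -1.48 at 60 min, and minus that of the RPL ORFs it was -1.66 at 30 min and -0.23 at 60 min. A pseudocount 10 times smaller for promoters put 1 gene past 1 at 120 min. Dividing promoter columns by their median gave a median change of -0.075 at 60 min and -0.046 at 120 min and changed the sign of 91 of 225 single promoter changes. Entropy columns centred on their median left 7 genes lower by at least 0.2 at 7.5 min, and quantile normalization 9, with 2 of 225 signs changed by each. The cause of these differences was not tested. Low counts after 15 min limit NIP7, MAK16, SSF1, RLP24, BRX1 and NOP8 most. Their counting errors at 60 min ran between 0.106 (NOP8) and 0.157 (NIP7).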
